A study of Oryctolagus cuniculus with 36 samples.

Results

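Kupffer cells are the resident macrophages of the liver. They sit in the sinusoids, take up bacteria, aged red cells and dying cells from portal blood through scavenger and complement receptors, and depend on signals through the receptor of colony stimulating factor 1. Resident cells carry TIMD4, VSIG4, MARCO and CD5L, which mark Kupffer cells of mouse or human liver, whereas CD68, CSF1R and the chains of C1q are shared by macrophages of many tissues, monocyte-derived ones included.

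The set described here holds 10 Kupffer cell and macrophage genes chosen by symbol from a table of 23394 genes of rabbit liver. A row was found for 8 of the 10, namely CD163, MARCO, CD68, C1QC, VSIG4, CSF1R, TIMD4 and CD5L, and all 8 passed the filter on low counts. C1QA and C1QB were not analysed here. In the RefSeq assembly mOryCun1.1 they are the genes on either side of C1QC.

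The series is about gene correction with CRISPR/Cas9 in newborn rabbits. The disease, hereditary tyrosinemia type I, follows loss of FAH, the hydrolase that ends the breakdown of tyrosine. The titles give 3 groups, FA, FK and WT (wild type). The labels do not spell out FA and FK, and they give no genotype, age or treatment that separates the groups: all samples, WT included, carry the same description as a model of the disease. Each group has 3 numbered sets of 4 libraries. Livers were trypsinized before extraction, per the labels' protocols. The 4 libraries of a set were summed to 1 replicate, which gave n = 3 per group. No label says whether libraries or sets came from separate animals. The p-values therefore speak of variation among these sets, and it may be technical.

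Library totals ran from 15.1 to 22.5 M counts in FA, from 11.7 to 16.1 M in FK and from 14.2 to 18.7 M in WT. FAH itself stood at 19.6 to 25.7 CPM in FA and 11.8 to 16.4 CPM in FK, against 218 to 271 CPM in WT. CPM is the count scaled to library size, here after TMM factors, which even out libraries dominated by a few genes. FK replicates 1 and 2 stood apart from the other 7 replicates. Across genes their log CPM correlated at r = 0.963 with each other and at 0.821 to 0.856 with the rest, while FK replicate 3 reached 0.958 to 0.970 with the FA replicates. Each FK value is therefore given by replicate, and each FK test of the 8 genes also without replicate 3 and without replicates 1 and 2.

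The livers carried RNA of the resident macrophage genes in every replicate. TIMD4, VSIG4, MARCO, CD5L, C1QC, CSF1R and CD68 had between 240 and 5299 counts in each single library. CD163 went against the label. This receptor for hemoglobin bound to haptoglobin is a standard marker of human Kupffer cells, but it had 8 to 20 counts per summed replicate in WT and at most 10 in any WT library.

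Apart from CD163, the libraries of a set gave close values. The coefficient of variation over the 4 libraries of a set had a median of 7.3% to 10.1% for the 7 other genes, with a highest value of 30.9% for TIMD4 in FK replicate 2. Over the 3 replicates of a group it was 12.3% to 30.7% in FA, 16.5% to 62.4% in FK and 12.1% to 46.6% in WT. For CD163 the set values ran from 5.1% in FK replicate 1, with 1939 counts, to 107.8% in WT replicate 3, with 8 counts.

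**Figure D1:**
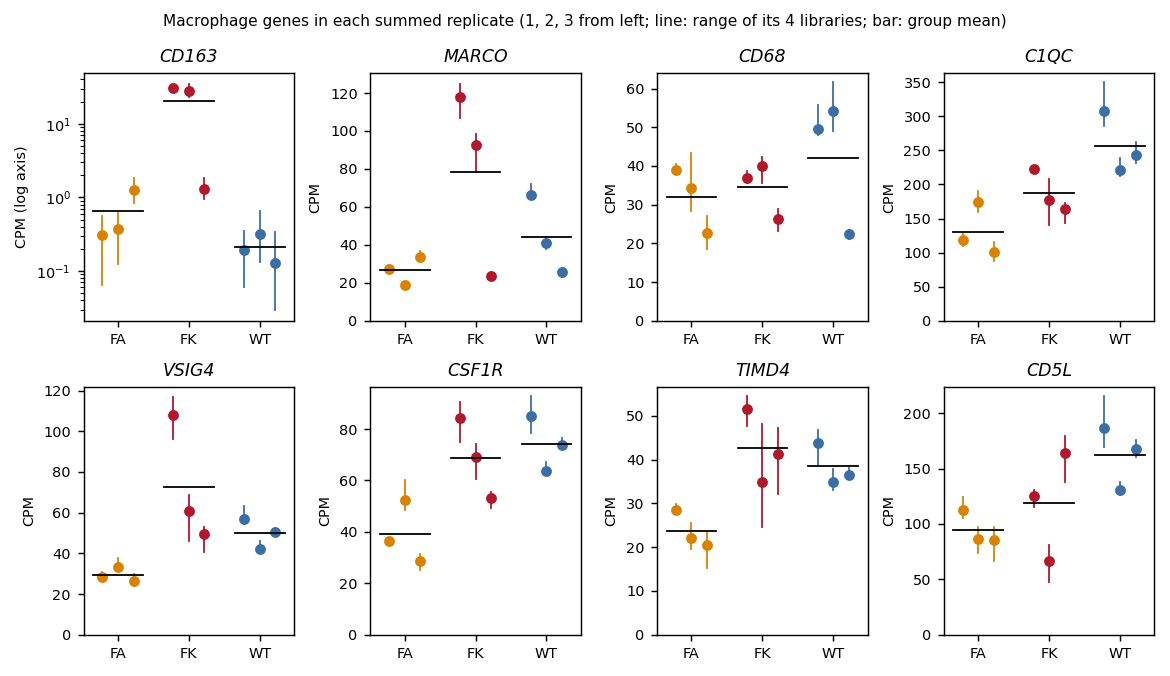
Level of the 8 genes in CPM (log axis for CD163 only) in the FA, FK and WT groups; each point is a replicate of 4 summed libraries (1 to 3 from left), the vertical line the range of its 4 libraries and the horizontal bar the group mean. C1QC, VSIG4, CSF1R, TIMD4 and CD5L lie lower in all FA replicates than in any WT replicate, and CD163 and MARCO are high in FK replicates 1 and 2 (the line of WT replicate 3 for CD163, which has a library at 0, is drawn to the low end of the axis).

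In FA the question is how the macrophage genes of these FAH-low livers compare with wild type. Of the 8 genes, 5 were lower in every FA replicate than in every WT replicate: C1QC, VSIG4, CSF1R, TIMD4 and CD5L. Their fitted differences were 1.62-fold to 1.97-fold. By edgeR's quasi-likelihood test none of the 8 was called at an adjusted p under 0.05 (adjusted p of 0.291 to 0.768), and 5 had an unadjusted p under 0.05. Among all 14939 genes tested, 0.167% were called between FA and WT, 10.2% had an unadjusted p under 0.05 and 12.4% were lower in FA without overlap. The median log2 difference of the 8 genes was -0.75, beside 0.00 for all genes tested. In bulk tissue fewer cells of a type and less RNA per cell cannot be told apart.

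C1QC encodes the C chain of C1q, which starts the classical complement pathway and tags dying cells for uptake. Its level was 118, 174 and 100.2 CPM in FA replicates 1 to 3, against 307, 221 and 243 CPM in WT. The highest FA replicate lay below the lowest WT replicate, and the fitted log2 difference was -0.98 (SE 0.27; 95% interval -1.60 to -0.36; adjusted p = 0.291 by edgeR's quasi-likelihood test). DESeq2 called this difference, with an adjusted p of 0.0358, and no other of the 8 genes, where 2.09% of all genes were called. Limma-voom on the single libraries called C1QC (adjusted p = 0.00328) and CSF1R (adjusted p = 0.00155), in a fit that called 3.44% of the 12775 genes that passed its filter.

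CSF1R, the receptor through which macrophages receive their survival signal, followed C1QC closely. Its level was 36.3, 52.4 and 28.8 CPM in FA, against 84.9, 63.6 and 74.0 CPM in WT. FA replicate 2 was the highest of the FA replicates for both genes and FA replicate 3 the lowest. The log2 difference of CSF1R was -0.92 (SE 0.27; 95% interval -1.53 to -0.31; adjusted p = 0.313 by edgeR's quasi-likelihood test).

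TIMD4 is a receptor for phosphatidylserine on dying cells and the narrowest marker of long-lived resident macrophages in this set, as known from mouse. It stood at 28.6, 22.2 and 20.4 CPM in FA, against 43.8, 35 and 36.6 CPM in WT. All FA values were below all WT values, and the log2 difference was -0.70 (SE 0.21; adjusted p = 0.328 by edgeR's quasi-likelihood test). VSIG4, a receptor for C3 fragments that lets Kupffer cells catch bacteria in flowing blood, stood at 28.5, 33.4 and 26.4 CPM in FA, against 57.1, 42.0 and 50.4 CPM in WT. The FA replicates of VSIG4 lay within 7 CPM of each other and below every WT replicate, at a log2 difference of -0.76 (SE 0.29; adjusted p = 0.427 by edgeR's quasi-likelihood test).

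CD5L, a secreted scavenger protein made by macrophages, stood at 113, 86.0 and 85.7 CPM in FA, against 187, 130.4 and 168 CPM in WT. The groups did not overlap, and the log2 difference was -0.77 (SE 0.33; adjusted p = 0.475 by edgeR's quasi-likelihood test).

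The 3 other genes did not separate FA from WT. MARCO, a scavenger receptor for bacteria and particles, stood at 27.4, 18.7 and 33.5 CPM in FA, against 66.3, 40.8 and 25.6 CPM in WT. CD68, a glycoprotein of macrophage lysosomes, stood at 39.0, 34.3 and 22.7 CPM in FA, against 49.5, 54.2 and 22.4 CPM in WT. For both genes WT replicate 3 lay inside the FA range or below it. CD163 stood at 0.309, 0.373 and 1.25 CPM in FA, against 0.192, 0.322 and 0.130 CPM in WT, or 120 counts over the FA group against 40 over the WT group. FA replicate 3 was the highest of the 6, and the groups overlapped.

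The marker sums of other cells of the liver sinusoid were also lower in the FA libraries. The 8 matched markers of sinusoidal endothelium summed to 212 to 339 CPM in FA, against 369 to 465 CPM in WT, and the 7 markers of stellate cells and fibroblasts to 139.9 to 186 CPM in FA, against 254 to 287 CPM in WT. Neither pair of ranges overlapped. In FK replicates 1, 2 and 3 the stellate sums were below WT too, at 178, 241 and 192 CPM. The endothelial sums in FK, 408, 271 and 297 CPM, overlapped with WT. By edgeR 0 genes of either list were called between FA and WT, with 3 of 8 and 2 of 7 at an unadjusted p under 0.05, none called by DESeq2 and 1 endothelial marker called by limma-voom. The log2 difference was below 0 for all 8 endothelial markers and for the stellate markers other than ACTA2 (0.37), an actin chosen after its values were seen. The 5 matched markers of B and plasma cells summed to 28.1 to 37.6 CPM in FA, against 83.1 to 96.8 CPM in WT. They were below WT in FK as well, at 4.41, 5.34 and 29.1 CPM in replicates 1, 2 and 3. JCHAIN, the joining chain of antibodies, also chosen after its values were seen, alone made up 25.4 to 33.5 CPM in FA and 78.1 to 92.4 CPM in WT, and 0 of the 5 were called by edgeR or DESeq2, with 1 at an unadjusted p under 0.05 and 1 called by limma-voom. Hepatocyte markers, whose sum is mostly albumin and other secreted proteins, took 208518 to 271345 CPM in FA, against 193989 to 258118 CPM in WT. No marker of these 4 lists was at 0 in any replicate. The part of these shifts in the macrophage result was not tested.

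**Figure D2:**
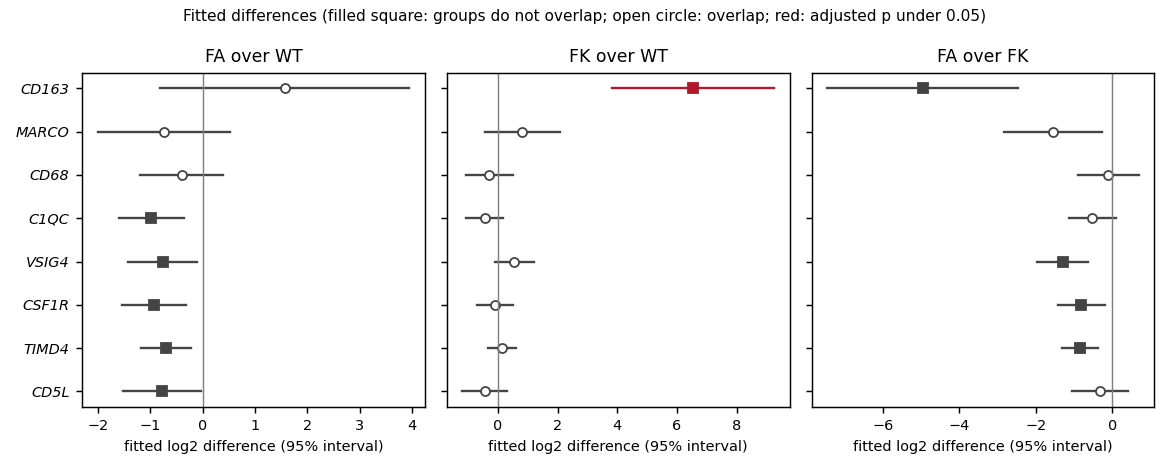
Fitted log2 difference of each of the 8 genes with its 95% interval for FA over WT, FK over WT and FA over FK; filled squares mark genes whose replicates do not overlap between the groups, and red marks an adjusted p under 0.05. CD163 in FK over WT, at 6.54, is the only red point, and the 8 differences of FA over FK are all below 0.

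In FK the same genes had no common direction. The 1 gene called by edgeR was CD163, which rose and was the only one called by DESeq2 or limma-voom too, and the 7 others overlapped between FK and WT. Among all genes tested, 4.77% were called between FK and WT, 3.04% higher and 1.73% lower (16.5% by DESeq2 and 19.2% by limma-voom), 26.9% had an unadjusted p under 0.05 and 13.9% were higher in FK without overlap. With total counts in place of TMM factors, 654 genes were called higher and 225 lower, against 454 and 258. This comparison and that of FA share the WT replicates. The log2 differences of the 8 genes were above 0 for 4 and below 0 for 4, with a median of 0.02 beside 0.05 for all genes tested.

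CD163 had 31.0, 27.9 and 1.3 CPM in FK replicates 1, 2 and 3, against 0.192, 0.322 and 0.130 CPM in WT. FK replicates 1 and 2 were 23.8 and 21.5 times FK replicate 3, which was itself above every WT replicate. The log2 difference was 6.54 (SE 1.20; 95% interval 3.81 to 9.26; adjusted p = 0.0355 by edgeR's quasi-likelihood test). Without FK replicate 3 it was 7.07 (adjusted p = 0.000102), and without any other single replicate of the 3 groups it was 6.08 to 6.93 with adjusted p of 0.0568 to 0.153, which ended the call. A fit of FK and WT alone gave an adjusted p of 0.0933. FK replicate 3 alone, with its spread taken to be that of the other groups, lay 2.55 log2 units above WT (adjusted p = 0.212), in a fit that called 0.493% of all genes.

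MARCO split the FK replicates in the same way. It had 118, 92.6 and 23.8 CPM in FK replicates 1, 2 and 3, against 66.3, 40.8 and 25.6 CPM in WT. FK replicates 1 and 2 were above every WT replicate and FK replicate 3 below them all, and the log2 difference over all 3 was 0.82 (SE 0.56; adjusted p = 0.372 by edgeR's quasi-likelihood test). Without FK replicate 3 it was 1.23 and was called (adjusted p = 0.0336), where 34.9% of all genes were called. Without FK replicates 1 and 2 it was -0.93 (adjusted p = 0.430).

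VSIG4 had 108, 60.9 and 49.3 CPM in FK replicates 1, 2 and 3, against 57.1, 42.0 and 50.4 CPM in WT. FK replicates 1 and 2 exceeded all WT replicates and FK replicate 3 lay among them, with a log2 difference of 0.54 (SE 0.29; 95% interval -0.11 to 1.20; adjusted p = 0.262 by edgeR's quasi-likelihood test). It was 0.74 without FK replicate 3 (adjusted p = 0.0509) and -0.05 without FK replicates 1 and 2 (adjusted p = 0.942).

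CSF1R, TIMD4 and CD68 had fitted differences close to 0 in FK. CSF1R stood at 84.2, 69.2 and 53.1 CPM in FK, against 84.9, 63.6 and 74.0 CPM in WT, a difference of -0.11 with a 95% interval of -0.71 to 0.50. TIMD4 stood at 51.6, 34.9 and 41.4 CPM in FK, against 43.8, 35 and 36.6 CPM in WT, a difference of 0.15 with a 95% interval of -0.33 to 0.62. CD68 stood at 37.0, 40.0 and 26.4 CPM in FK, against 49.5, 54.2 and 22.4 CPM in WT, a difference of -0.29 with a 95% interval of -1.08 to 0.51. Without FK replicate 3 the differences were 0.03, 0.15 and -0.15 for CSF1R, TIMD4 and CD68, and without FK replicates 1 and 2 they were -0.52, 0.07 and -0.71, with no call. The intervals bound the differences without showing that the groups were alike.

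C1QC and CD5L had lower means in FK than in WT, with overlap. C1QC stood at 223, 177 and 164 CPM in FK, against 307, 221 and 243 CPM in WT, a log2 difference of -0.45 (SE 0.27; adjusted p = 0.318 by edgeR's quasi-likelihood test). It was -0.38 without FK replicate 3 and -0.68 without FK replicates 1 and 2, with no call. CD5L stood at 125, 66.4 and 164 CPM in FK, against 187, 130.4 and 168 CPM in WT. CD5L was the one gene of the set for which FK replicate 3 exceeded both other FK replicates, with replicates 1 and 2 at 0.759 and 0.404 times its level. Its log2 difference was -0.45 (SE 0.33), or -0.78 without FK replicate 3 (adjusted p = 0.0721) and -0.01 without FK replicates 1 and 2 (adjusted p = 0.991).

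RNA of neutrophil, erythroid and platelet markers was high in FK replicates 1 and 2. The 8 matched neutrophil markers summed to 1071 and 1562 CPM in FK replicates 1 and 2 and to 26.0 CPM in FK replicate 3, against 15.3 to 24.8 CPM in WT. MPO, a granule enzyme of neutrophils chosen after its values were seen, was at 8.25, 18.5 and 0.0169 CPM in FK, against 0.0639 to 0.259 CPM in WT. The 10 matched erythroid markers summed to 801 and 2013 CPM in FK replicates 1 and 2 and to 156 CPM in FK replicate 3, against 39.9 to 106 CPM in WT. TFRC, the transferrin receptor that other cells carry too, made up 143 CPM of the sum in FK replicate 3. The 5 matched megakaryocyte and platelet markers summed to 67.1 and 55.0 CPM in FK replicates 1 and 2 and to 1.44 CPM in FK replicate 3, against 0.709 to 2.20 CPM in WT. The recruited monocyte genes, 10 of 13 matched, summed to 48.9, 37.3 and 26.1 CPM in FK replicates 1, 2 and 3, against 17.8 to 22.3 CPM in WT. Whether circulating or blood-forming cells gave this RNA was not tested, nor was their part in the levels of CD163, MARCO and VSIG4.

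**Figure D3:**
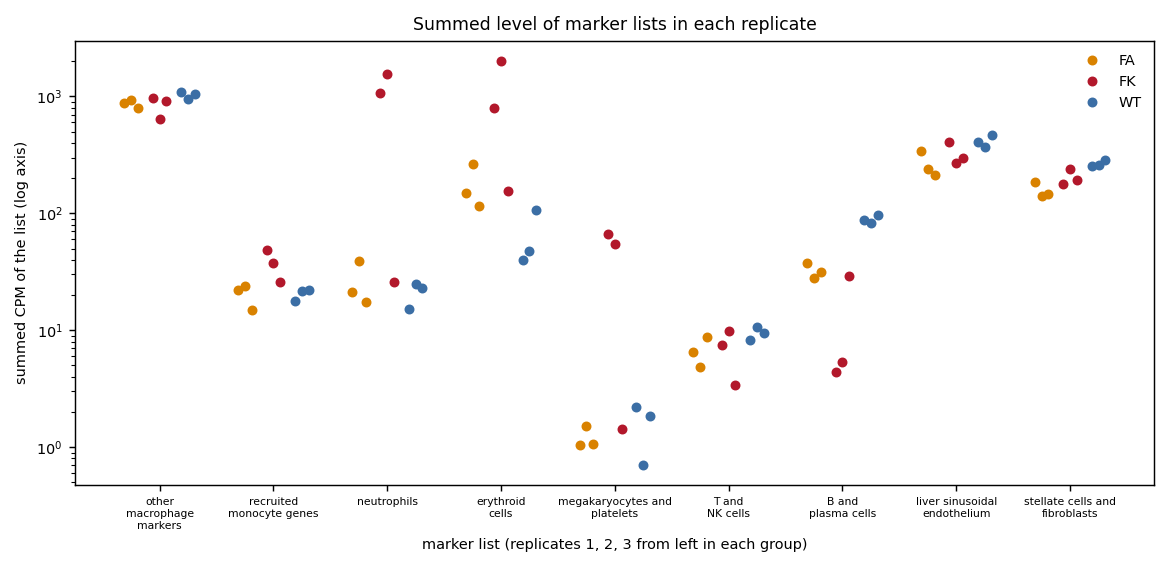
Summed CPM (log axis) of the matched genes of 9 marker lists in each of the 3 replicates of FA, FK and WT. Neutrophil, erythroid and megakaryocyte sums are highest in FK replicates 1 and 2. The sums of other macrophage markers are 799 to 931 CPM in FA, below the 942 to 1098 CPM in WT. In FK replicates 1, 2 and 3 they are 979, 639 and 909.9 CPM, with single genes moving both ways in FK replicates 1 and 2. SLCO2B1, which hepatocytes carry too, alone makes up 274 to 333 CPM of these sums in FA and 225 to 269.5 CPM in WT.

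Set against FK, the FA livers had the lower mean for all 8 genes. The FA and WT comparison and this one share the FA replicates, so the same FA values enter both. By edgeR none of the 8 was called (adjusted p of 0.115 to 0.883), as none of all 14939 genes was (0.0%), and 5 had an unadjusted p under 0.05 beside 21.9% of all genes. DESeq2 called 3 of the 8, CD163, VSIG4 and TIMD4, and 11.1% of all genes. Limma-voom called these and MARCO and CSF1R, and 17.0% of all genes. CD163, VSIG4, CSF1R and TIMD4 were lower in every FA replicate than in every FK replicate, as were 8.99% of all genes tested.

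VSIG4 had a log2 difference of -1.30 in FA over FK (SE 0.29; 95% interval -1.97 to -0.64), the values being 28.5, 33.4 and 26.4 CPM in FA and 108, 60.9 and 49.3 CPM in FK. TIMD4 had -0.84 (SE 0.21), CSF1R -0.81 (SE 0.27) and MARCO -1.56 (SE 0.56). The CD163 difference of -4.96 (SE 1.10) was carried by FK replicates 1 and 2: FA replicate 3, at 1.25 CPM, stood beside FK replicate 3, at 1.3 CPM. Without FK replicate 3 these 5 genes were called, with adjusted p of 0.000212 to 0.0219, in a fit that called 34.5% of all genes. Without FK replicates 1 and 2 none was, and the difference was -0.71 for VSIG4, -0.77 for TIMD4, -0.40 for CSF1R, -0.98 for CD163 and 0.19 for MARCO. C1QC (-0.53, SE 0.27), CD5L (-0.32, SE 0.33) and CD68 (-0.11, SE 0.35) overlapped between FA and FK, with differences of -0.60, 0.01 and -0.25 without FK replicate 3 and of -0.30, -0.76 and 0.31 without FK replicates 1 and 2, none called.

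Dividing each gene's counts by those of CSF1R in the same replicate removes the library scaling. It also brings in the level of CSF1R, which averaged 39.2 CPM in FA, 68.8 CPM in FK and 74.2 CPM in WT. A ratio can therefore be higher in FA though the gene itself is not. C1QC kept a narrow ratio to CSF1R, with 3.24, 3.32 and 3.48 counts per CSF1R count in FA replicates 1, 2 and 3, 2.65, 2.56 and 3.10 in FK, and 3.62, 3.48 and 3.28 in WT. The log2 ratio averaged 1.74 ± 0.05 in FA and 1.79 ± 0.07 in WT (SD, n = 3 each; exact permutation p = 0.4, two-sided). In FK it averaged 1.47 ± 0.15, below every WT value (exact permutation p = 0.1, the smallest that 3 against 3 replicates can give).

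VSIG4 had the tightest ratio in WT. It was 0.783, 0.638 and 0.915 in FA, 1.28, 0.880 and 0.928 in FK, and 0.672, 0.661 and 0.681 in WT. All FK ratios were above all WT ratios, FK replicate 3 included (exact permutation p = 0.1, two-sided), while FA overlapped with WT. CD5L counts were 3.10, 1.64 and 2.97 times those of CSF1R in FA, 1.48, 0.959 and 3.09 times in FK, and 2.20, 2.05 and 2.27 times in WT, so that both other groups spread beyond WT on both sides. TIMD4 ratios ran from 0.425 to 0.786 in FA and 0.504 to 0.780 in FK, against 0.495 to 0.550 in WT. CD68 ratios were 1.07, 0.656 and 0.786 in FA, all above the FK ratios of 0.440, 0.578 and 0.497 (exact permutation p = 0.1, two-sided), with 0.583, 0.851 and 0.302 in WT. In CPM CD68 overlapped between FA and FK, with means of 32.0 and 34.5, so its ratios part through CSF1R. MARCO ratios, from 0.356 to 1.16 in FA, 0.448 to 1.4 in FK and 0.346 to 0.781 in WT, overlapped throughout.

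The ratio of CD163 was 0.00849, 0.00711 and 0.0435 in FA, 0.368, 0.404 and 0.0245 in FK, and 0.00226, 0.00506 and 0.00175 in WT. WT had the 3 lowest values of the 9, and FA and FK overlapped. In CPM, which CSF1R does not enter, CD163 overlapped between FA and WT. The WT ratios rest on 8 to 20 CD163 counts per replicate. In all, 21 such differences were tested, and the lowest exact permutation p of 0.1 became 0.35 after Benjamini-Hochberg adjustment.

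**Figure D4:**
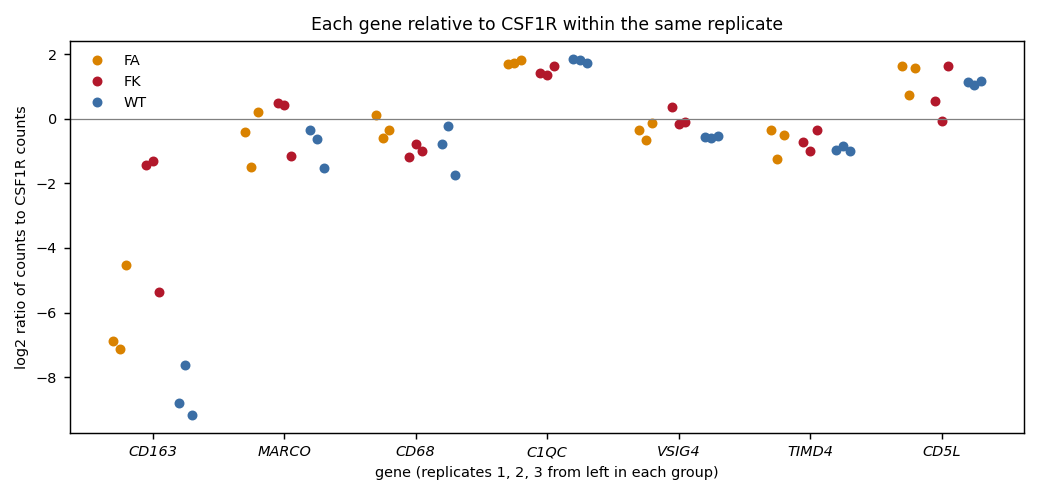
Log2 ratio of the counts of 7 genes to the counts of CSF1R in the same replicate, for the 3 replicates of FA, FK and WT. C1QC keeps log2 ratios of 1.36 to 1.86 throughout, while CD163 runs from -9.16 in WT replicate 3 to -1.31 in FK replicate 2.

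Likeness between genes was measured as the mean absolute difference of log2 profiles over the 9 replicates, each profile set to its WT mean. CSF1R and C1QC were each other's nearest member, at 0.14 log2 units. VSIG4 and TIMD4 were each other's nearest at 0.23, CD5L was nearest to TIMD4 at 0.28, CD68 to TIMD4 at 0.44 and MARCO to VSIG4 at 0.54. CD163 stood far from them all, at 2.25 from MARCO and 2.70 from C1QC. Among 10926 genes compared, 2 were nearer to CSF1R than C1QC was, and 2 nearer to C1QC than CSF1R was. The other pairs were less close among all genes: 29 genes were nearer to VSIG4 than TIMD4 was, 52 nearer to TIMD4 than VSIG4 was, 95 nearer to CD5L, 606 to MARCO, 2444 to CD68 and 6468 to CD163 than their nearest member was.

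The nearest genes outside the set were PTGS1 for CSF1R (0.10), ITPRIPL2 for TIMD4 (0.11), SH3PXD2A for VSIG4 (0.12), ADGRE5 for C1QC (0.12), FAT4 for CD5L (0.14), TRIM45 for CD68 (0.15), LAT for MARCO (0.24) and CFAP100 for CD163 (0.50). PTGS1, the prostaglandin synthase COX-1, stood at 7.21, 9.28 and 5.0 CPM in FA, 14.7, 11.9 and 7.84 CPM in FK, and 17.4, 10.7 and 11.7 CPM in WT. CFAP100 stood at 0.0561, 0.113 and 0.284 CPM in FA, 6.33, 4.81 and 0.253 CPM in FK, and 0.0160, 0.0805 and 0.0162 CPM in WT. The replicates share FK replicates 1 and 2, which stand apart for many genes, so these distances are a description.

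Other lists place these genes among the rest of macrophage biology. Over all 20 lists beside the set, 185 genes were tested. By edgeR 13 of them (7.03%, beside 4.77% of all genes) were called between FK and WT, 8 higher and 5 lower, and none between FA and WT or between FA and FK. An unadjusted p under 0.05 was reached by 85 of the 185 between FK and WT, 22 between FA and WT and 76 between FA and FK, beside 26.9%, 10.2% and 21.9% of all genes. DESeq2, which tested 183 of them, called 64, 4 and 51, beside 16.5%, 2.09% and 11.1% of all genes it tested. Limma-voom, which tested 164 of them, called 49, 9 and 42, beside 19.2%, 3.44% and 17.0%. The same shares of all genes stand beside the counts of each list below. Without FK replicate 3 all 13 calls between FK and WT held. That fit called 98 of the 185 genes and 34.9% of all genes, so it is no check of these calls. Each of the 13 was lost without at least 1 other replicate, and without WT replicate 1, 2 or 3 or FK replicate 1 none remained.

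Among regulators of Kupffer cell identity 1 of 8 tested was called by edgeR between FK and WT, lower, with 4 at an unadjusted p under 0.05, 3 called by DESeq2, 3 by limma-voom and a list median of -0.65. NR1H3, the liver X receptor alpha, which hepatocytes express too, fell in FK. It stood at 22.4, 19.8 and 40.2 CPM in FK, against 59.3, 82.1 and 63.9 CPM in WT, a log2 change of -1.32 (SE 0.30; adjusted p = 0.0472 by edgeR's quasi-likelihood test). The change was -1.72 without FK replicate 3 (adjusted p = 0.000787) and -0.80 without FK replicates 1 and 2 (adjusted p = 0.265). Between FA and WT 0 of 8 were called by edgeR, DESeq2 or limma-voom, with 1 at an unadjusted p under 0.05 and a median of -0.50, and ZEB2 had the smallest p, at 12.1 ± 1.42 CPM in FA and 17.2 ± 1.24 CPM in WT. SPIC, a regulator of red pulp macrophages in mouse spleen, was chosen after its values were seen. It stood at 2.13, 0.745 and 1.92 CPM in FA, 0.783, 0.561 and 1.33 CPM in FK, and 3.58, 2.11 and 2.48 CPM in WT, with no call.

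The list around the CSF1 receptor had 6 tested genes, of which only CSF1 is a ligand of that receptor. The others, CSF2RA, CSF2RB, CSF3R, FLT3 and KIT, are receptors for other growth factors. Of the 6, 0 were called in any of the 3 comparisons, with medians of 1.20 in FK over WT, -0.14 in FA over WT and -1.35 in FA over FK. An unadjusted p under 0.05 was reached by 4, 0 and 5 of them, DESeq2 called 3, 0 and 3, and limma-voom called 0, 0 and 2. The ligand CSF1, chosen after its values were seen, stood at 6.05, 7.78 and 4.07 CPM in FA, 9.59, 9.60 and 7.37 CPM in FK, and 9.50, 5.15 and 6.51 CPM in WT. Its log2 difference was 0.33 in FK over WT (SE 0.31), so the list median does not describe this ligand. The other ligand of the CSF1 receptor, IL34, also chosen after its values were seen, did not pass the filter, at no more than 0.135 CPM in any replicate. CSF2RA, the alpha chain of the GM-CSF receptor, averaged 5.59 ± 1.01 CPM in FA and 14.7 ± 6.65 CPM in FK (SD, n = 3 each; adjusted p = 0.115 by edgeR). CSF3R, the receptor for G-CSF on neutrophils, averaged 10.8 ± 2.71 CPM in FK and 4.15 ± 1.09 CPM in WT (adjusted p = 0.0572 by edgeR).

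Of 20 other macrophage markers tested, 0 were called in any comparison by edgeR. An unadjusted p under 0.05 was reached by 6 between FK and WT, 2 between FA and WT and 8 between FA and FK, DESeq2 called 2, 0 and 4, and limma-voom called 3, 0 and 6. The list medians were 0.24 for FK over WT, -0.38 for FA over WT and -0.60 for FA over FK. MRC1, the mannose receptor of macrophages and sinusoidal endothelium, stood at 56.0, 45.4 and 59.6 CPM in FA, against 77.7, 83.2 and 94.9 CPM in WT. All FA replicates were below all WT replicates, at a log2 difference of -0.67 (SE 0.22; adjusted p = 0.357 by edgeR). In the FK replicates MRC1 stood at 56.1, 44.0 and 70.5 CPM (log2 -0.58 against WT, SE 0.22, adjusted p = 0.131 by edgeR). LGMN, a lysosomal protease, averaged 114 ± 56.0 CPM in FK and 273 ± 19.2 CPM in WT (adjusted p = 0.0561 by edgeR). CYBB, the oxidase subunit of phagocytes, averaged 8.27 ± 1.39 CPM in FA and 22.3 ± 7.61 CPM in FK (adjusted p = 0.115 by edgeR). Single markers moved both ways in FK replicates 1 and 2. LAPTM5, ITGAM and FCER1G were chosen after their values were seen. In FK replicates 1, 2 and 3 LAPTM5 stood at 60.7, 84.7 and 16.2 CPM, against 25.2 to 30.4 CPM in WT. ITGAM stood at 19.2, 27.4 and 8.99 CPM, against 5.88 to 11.2 CPM. FCER1G stood at 23.1, 19.7 and 11.1 CPM, against 8.47 to 11.2 CPM. LGMN went the other way, at 89.3, 74.7 and 178 CPM, against 253 to 291 CPM.

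**Figure D5:**
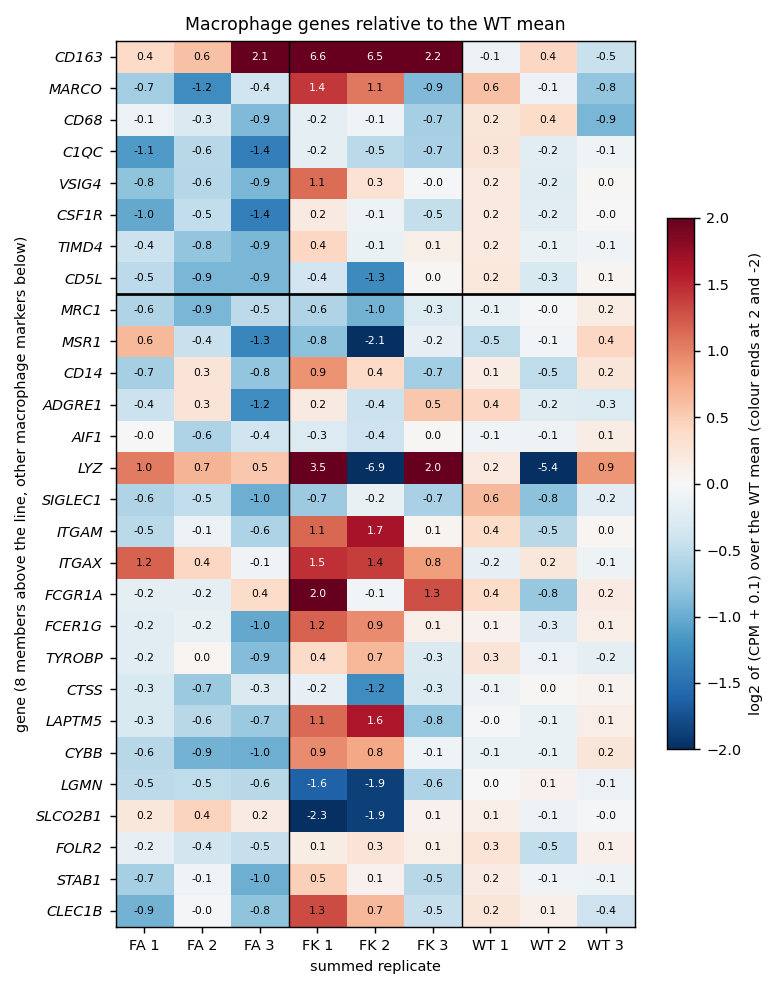
Log2 of CPM + 0.1 over the WT mean for the 8 genes (above the line) and 20 other macrophage markers (below it) in the 9 replicates, FA, FK and WT from left; red is above and blue below the WT mean, and colours end at 2 and -2. In FA replicates 1, 2 and 3, 7 of the 8 genes lie below the WT mean, and in FK the column of replicate 3 differs from those of replicates 1 and 2.

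Of 12 genes of lipid-associated macrophages, a state described in injured mouse and human liver, 2 rose and 1 fell in FK. FABP5, a fatty acid binding protein, stood at 69.1, 43.4 and 4.70 CPM in FK, against 2.41, 3.59 and 3.13 CPM in WT (log2 3.68, SE 0.78; adjusted p = 0.0416 by edgeR). FABP4, a related protein of adipocytes, capillaries and macrophages, stood at 10.1, 4.73 and 1.60 CPM in FK, against 0.0799, 0.161 and 0.0972 CPM in WT (adjusted p = 0.0414 by edgeR). LGALS3, a galectin secreted by macrophages, went the other way, at 3.6, 5.17 and 15.4 CPM in FK, against 60.1, 59.7 and 65.1 CPM in WT (log2 -2.94, SE 0.52; adjusted p = 0.034 by edgeR). Without FK replicates 1 and 2 the log2 difference was 0.59 for FABP5, 3.78 for FABP4 and -2.03 for LGALS3, none called. LGALS3 was about as low in FA, at 7.6, 4.16 and 7.30 CPM (log2 -3.28 against WT, SE 0.53). EdgeR did not call it (adjusted p = 0.0693), while DESeq2 (adjusted p = 1.68e-07), limma-voom (adjusted p = 9.14e-05) and edgeR without FK replicate 3 (adjusted p = 0.00134) did. Over the 12 genes 6, 3 and 6 had an unadjusted p under 0.05 for FK over WT, FA over WT and FA over FK, DESeq2 called 7, 2 and 4, and limma-voom called 6, 1 and 3. CD9, a tetraspanin, averaged 1.38 ± 0.537 CPM in FA and 11.2 ± 7.06 CPM in FK (SD, n = 3 each; adjusted p = 0.115 by edgeR). The list medians were 0.84 for FK over WT, 0.16 for FA over WT and -0.10 for FA over FK.

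Partners of the 8 genes in uptake and complement had no call by edgeR. Of 14 genes of dying cell clearance tested, 0 were called by edgeR in any comparison, with medians of -0.05 for FK over WT, -0.22 for FA over WT and -0.34 for FA over FK. In the same order 5, 2 and 5 had an unadjusted p under 0.05, DESeq2 called 2, 0 and 1, and limma-voom called 5, 2 and 7. AXL, a receptor tyrosine kinase for dying cells, averaged 17.9 ± 4.43 CPM in FA and 32.2 ± 6.67 CPM in WT (adjusted p = 0.291 by edgeR). ELMO1, which links uptake receptors to the cytoskeleton, averaged 17.5 ± 5.15 CPM in FK and 34.7 ± 7.35 CPM in WT (adjusted p = 0.0562 by edgeR). DOCK2, its partner in blood cells, averaged 6.66 ± 0.963 CPM in FA and 15.7 ± 5.37 CPM in FK (adjusted p = 0.115 by edgeR). Of 14 genes that handle hemoglobin, heme and iron, 0 were called, with medians of 0.26, 0.21 and -0.05 in the same order, while 3, 1 and 6 had an unadjusted p under 0.05, DESeq2 called 3, 0 and 5 and limma-voom called 6, 0 and 5. HMOX1, which degrades the heme that CD163 brings in, stood at 28.4, 18.4 and 11.6 CPM in FA, against 82.1, 77.6 and 32.2 CPM in FK (adjusted p = 0.116 by edgeR). All FA values lay below all FK values. SLC11A1, a metal transporter of phagosomes, stood at 4.62, 2.71 and 0.0845 CPM in FK, against 0.0958, 0.193 and 0.0810 CPM in WT, high in FK replicates 1 and 2 as CD163 was (adjusted p = 0.0585 by edgeR). BLVRB, a biliverdin reductase, averaged 264 ± 68.0 CPM in FA and 145 ± 33.0 CPM in WT (adjusted p = 0.447 by edgeR).

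Of 15 genes of the classical complement pathway and partners of C3, 0 were called, with medians of -0.34 for FK over WT, -0.13 for FA over WT and 0.07 for FA over FK. Of these, 3, 1 and 1 had an unadjusted p under 0.05, DESeq2 called 1, 0 and 1, and limma-voom called 4, 1 and 1. CD55, which protects cells from complement, averaged 197 ± 14.9 CPM in FK and 86.4 ± 25.2 CPM in WT (adjusted p = 0.0651 by edgeR). CD93 averaged 19.4 ± 5.31 CPM in FA and 30.8 ± 4.51 CPM in WT (adjusted p = 0.471), and CR1, a receptor for C3b, 1.14 ± 0.189 CPM in FA and 2.32 ± 0.459 CPM in FK (adjusted p = 0.121). C1R, a protease that C1q carries, was chosen after its values were seen. It stood at 971, 2467 and 1372 CPM in FA, 1002, 771 and 2075 CPM in FK, and 1940.4, 1464 and 1745 CPM in WT. Its groups overlapped, unlike those of C1QC between FA and WT. Of 19 lysosomal genes, the compartment of CD68, 0 were called, with medians of -0.08, 0.12 and 0.31 in the same order, while 4, 4 and 2 had an unadjusted p under 0.05, DESeq2 called 3, 1 and 1 and limma-voom called 6, 3 and 3. MCOLN1, a lysosomal calcium channel, averaged 27.6 ± 6.49 CPM in FA and 52.0 ± 4.28 CPM in WT (adjusted p = 0.21), and GUSB, a lysosomal glucuronidase, 82.9 ± 53.4 CPM in FK and 291 ± 79.2 CPM in WT (adjusted p = 0.0658 by edgeR). Of 10 genes of macrophages that nurse red cell precursors, 0 were called, with medians of -0.41, -0.32 and -0.13, while 5, 0 and 5 had an unadjusted p under 0.05, DESeq2 called 5, 0 and 2 and limma-voom called 4, 0 and 3. KLF1, an erythroid transcription factor, stood at 6.22, 24.9 and 0.220 CPM in FK, against 0.176, 0.354 and 0.373 CPM in WT (adjusted p = 0.0658 by edgeR). DESeq2 called KLF1 (adjusted p = 0.000121). It is also on the erythroid marker list, so the calls of this list are not of macrophage genes alone. SIGLEC1, the sialoadhesin of those macrophages, stood at 42.1, 45.1 and 32.3 CPM in FA, 38.6, 57.3 and 40.4 CPM in FK, and 99.7, 36.0 and 55.2 CPM in WT, with overlap throughout.

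The recruited monocyte list had 10 genes tested and 0 called, with medians of 0.67 for FK over WT, 0.00 for FA over WT and -0.82 for FA over FK. An unadjusted p under 0.05 was reached by 4, 1 and 3 of them, DESeq2 called 1, 0 and 2, and limma-voom, which tested 6, called none. CCL4, a chemokine of activated macrophages and lymphocytes, had the smallest p between FA and WT, at 0.309, 0.308 and 0.284 CPM in FA, against 0.0958, 0.0483 and 0.0810 CPM in WT (adjusted p = 0.201 by edgeR). CCR2, the chemokine receptor of inflammatory monocytes, was chosen after its values were seen. It stood at 0.716, 0.972 and 0.485 CPM in FA, 2.13, 1.35 and 0.828 CPM in FK, and 0.831, 0.805 and 1.05 CPM in WT. FK replicates 1 and 2 were the highest for CCR2, as they were for CD163 and MARCO.

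Of the marker lists of other cells, by edgeR neutrophil markers had 3 of 7 called higher in FK (S100A8, S100A9 and S100A12), erythroid markers 1 of 10 (TFRC), megakaryocyte and platelet markers 1 of 3 (GP9) and hepatocyte markers 1 of 7 (APOA1). In the same order 6, 10, 3 and 2 had an unadjusted p under 0.05, DESeq2 called 6, 10, 3 and 4, and limma-voom, which tested 6, 7, 1 and 7 of them, called 3, 1, 0 and 6. Hepatocyte markers went both ways, with the names that follow chosen after their values were seen. APOB (0.96), TF (0.95) and FGB (1.25) had log2 differences above 0, as APOA1 did. ALB (-0.52), TTR (-1.21) and AMBP (-0.69) were below 0. APOA1 was low for a hepatocyte marker in WT, at 28.0 to 49.2 CPM, against 5752 to 7105 CPM for APOB. Its call therefore says little about the amount of hepatocytes. S100A9, a calcium-binding protein of neutrophils and monocytes, stood at 577, 849.7 and 8.26 CPM in FK, against 4.38, 7.31 and 9.12 CPM in WT (adjusted p = 0.0442 by edgeR). T and NK cell markers had 1 of 9 called lower (CD5), B and plasma cell markers 1 of 5 (MS4A1) and bile duct markers 1 of 4 (SOX9). In the same order 8, 3 and 2 had an unadjusted p under 0.05, DESeq2 called 8, 1 and 1, and limma-voom, which tested 6, 4 and 4 of them, called 0, 2 and 0. These counts cover both directions. NKG7 (4.51), CD8A (0.15), CD22 (0.02) and EPCAM (2.09) had log2 differences above 0, and the other genes tested in these lists were below 0. Those names were chosen after their values were seen. Sinusoidal endothelium (8 tested), stellate cells and fibroblasts (7 tested) and dendritic cells (6 tested) had 0 called between FK and WT by edgeR, with 4, 3 and 5 at an unadjusted p under 0.05, 2, 3 and 1 called by DESeq2 and 2, 1 and 0 by limma-voom.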

How the data were processed

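The deposited table holds estimated counts per gene for 36 libraries, whole numbers as deposited by the authors. Salmon 0.14.1 appears in the submitters' processing notes. What it was used for, and the build, annotation and rounding, are not stated there. Libraries were grouped by title, and the 4 libraries of each set were summed to 53.2 to 78.6 M counts. One edgeR 4.0.16 model (R 4.3.3) over all 9 replicates used TMM factors, and quasi-likelihood F tests covered the 14939 genes that passed filterByExpr, with Benjamini-Hochberg adjustment over all of them and calls at an adjusted p under 0.05. The procedure was tested on simulated data.

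The members, the lists and the rule for names were chosen with earlier results of these data known. All 8 members are named, and of each list up to 3 called genes with the smallest p or, without calls, the gene with the smallest p. Marker lists of other cells are given by their calls and sums. Other names are marked where they stand. A gene that this rule names is not reported here. Of 224 list genes, 192 were matched by symbol and 11 by RefSeq gene ID. A planned ratio among the C1q chains could not be made with C1QC alone, and ratios to CSF1R were chosen after seeing the data. Profiles used a pseudocount of 0.1 CPM, and genes compared for likeness had at least 1 CPM in the highest group mean. Strandedness of counting is not stated, so overlapping genes are uncertain, as are genes with similar copies. No sequence of these genes was used here.

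Alternatives were DESeq2 1.42.0, RLE size factors, total counts, 2 other filters, a fit of 2 groups only, a replicate block, limma-voom (limma 3.58.1) on the single libraries, correlated within a set, each replicate left out, and FK replicates 1 and 2 left out, the last chosen after seeing the data. Figures were drawn with matplotlib 3.10.9.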

Additional observations from a re-analysis of the deposited data

How the results depend on the processing

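Of the 8 genes' differences, recomputed under 18 alternatives in 3 comparisons, 394 of 432 values kept their direction and their side of the threshold, 11 lost a call, 17 gained one and 10 changed sign. All 11 lost calls were those of CD163 between FK and WT. The cause of these shifts was not tested. CSF1R in FK over WT was 0.06 with total counts and ran from -0.28 to 0.03 with 1 replicate left out, above 0 without FK replicate 3. TIMD4 in FK over WT ran from -0.01 without FK replicate 1 to 0.27. CD68 in FA over FK ran from -0.26 to 0.10, being 0.10 without FA replicate 3 and 0.02 without FK replicate 2, and CD5L from -0.60 to 0.01, its highest, without FK replicate 3. Without FK replicates 1 and 2, MARCO was -0.93 and VSIG4 -0.05 in FK over WT, and MARCO was 0.19 and CD68 0.31 in FA over FK. With total counts the median of all genes moved to 0.21 in FK over WT and -0.21 in FA over FK, against 0.05 and -0.02 with TMM factors.

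The number of the 8 genes called between FK and WT, 1 in the fit reported, was 0 with only 2 groups, 0 with the set number as a replicate block, 0 without FK replicates 1 and 2, and 0 to 2 with 1 replicate left out. Between FA and WT it was 1 with DESeq2 and 2 with limma-voom (C1QC and CSF1R), and 0 with any 1 replicate left out. Between FA and FK it was 3 with DESeq2, 5 with limma-voom and 0 to 5 with 1 replicate left out. Over all genes, 712 were called between FK and WT, but 2706 with DESeq2, 2448 with limma-voom, 43 with only 2 groups, 47 with the replicate block, 77 without FK replicates 1 and 2, and 22 to 5396 with 1 replicate left out. Between FA and WT the count of 25 was 335, 440, 235, 3, 189 and 2 to 247 in the same order. Between FA and FK it was 0, but 1778 with DESeq2, 2169 with limma-voom and 0 to 5324 with 1 replicate left out. Set numbers did not pair the replicates: deviations from the group means correlated at -0.087 to 0.099 between same-numbered sets. The replicate block changed no other call of the 8 genes than that of CD163 (adjusted p = 0.0919). For the 13 other list genes called, 133 of 231 values lost the call. Depth limits CD163 in WT, where 8 to 20 counts per replicate were measured.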

Other observations

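Lysozyme, a secreted product of macrophages, varied between replicates of a group. The identifier LOC100341160, named LYZ in the RefSeq table, stood at 47.2, 37.0 and 33.3 CPM in FA, 264, 0.0910 and 92.4 CPM in FK, and 26.2, 0.435 and 42.2 CPM in WT. FK replicate 2 and WT replicate 2 were near 0 while the other replicates of their groups were not. Genes with similar copies are uncertain in these estimated counts. LYZ was chosen after its values were seen.

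SLCO2B1, an organic anion carrier of macrophages and hepatocytes, was also chosen after its values were seen. It stood at 287, 333 and 274 CPM in FA, 49.3, 67.0 and 260.2 CPM in FK, and 269.5, 225 and 239 CPM in WT, with FK replicates 1 and 2 below the other 7 replicates.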
